A study of Homo sapiens with 11 samples.

Results

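UBE2M knockdown was compared with control siRNA in HEK293T cells, a human embryonic kidney line. The comparison rests on 6 of the 11 poly(A) RNA-seq libraries, 3 from cells transfected with siRNA against UBE2M (siUBE2M, 70 nM) and 3 labelled control siRNA, all collected 48 h after RNAiMAX transfection. The amount of control siRNA is not given. The other libraries, from siNAE1 (50 nM, n = 3) and siURM1 (60 nM, n = 2) cells, shared one fit with these 6 and served to show where siUBE2M differed. All groups are transient transfections of 1 cell line, and the labels call the replicates biological without saying whether they came from separate passages.

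UBE2M is an E2 enzyme. It receives the ubiquitin-like protein NEDD8 from the E1 enzyme, a heterodimer of NAE1 and UBA3, and passes it on to cullins with the help of the ring-finger protein RBX1 and of DCN1-like proteins. Cullins carrying NEDD8 drive the cullin-RING ubiquitin ligases, which control the turnover of many regulators of the cell cycle and of stress responses. The study asked whether the same enzymes also handle URM1, a ubiquitin-like modifier that serves as a sulphur donor for tRNA as well.

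The 6 libraries are described over all 18368 genes with enough counts to be tested, of 58735 listed. Total counts ran from 15175945 to 15703118 per control library and from 13465165 to 14996068 per siUBE2M library, so the knockdown libraries were slightly shallower. Transcripts of the mitochondrial genome took 4.57 to 4.93% of the counts in control libraries and 4.12 to 4.43% in siUBE2M libraries, and long noncoding RNAs took 1.91 to 2.03% and 1.52 to 1.66%. The ranges did not overlap, and what part these shares have in the gene-level results was not tested. All 12 genes of a list of HEK293 identity were tested. Of markers for other cells, 1 of 12 hepatocyte, 4 of 12 keratin, 4 of 10 fibroblast, 2 of 11 blood cell and 0 of 6 endothelial genes had enough counts. The summed level of the 4 fibroblast markers was 21.6 to 26.4 CPM (counts scaled to a common library total) in control and 31.8 to 39.3 CPM in siUBE2M libraries. Among them LUM rose by 2.09 ± 0.52 and COL3A1 by 1.54 ± 0.23 on the log2 scale (± SE), and CD14, of the blood list, by 2.37 ± 0.41, all at 0.181 to 6.39 CPM in each library, and COL1A1, the fibroblast marker of highest CPM, by 0.38. Their part in other results was not tested. In bulk RNA of this kind, fewer cells of a type and less RNA per cell cannot be told apart.

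Knockdown was deep in every library. UBE2M, on the reverse strand of chromosome 19 (ENSG00000130725; chr19:58555712-58558954 in GRCh38), stood at 263, 268 and 264 CPM in the control libraries and at 15.6, 15.6 and 19.1 CPM after siUBE2M. The groups lay far apart, with 5.89 to 7.22% of the control mean left. The log2 fold change was -3.98 ± 0.08 (adjusted p = 1.43e-27, edgeR quasi-likelihood test). UBE2M kept 236 ± 8.42 CPM (SD, n = 3) in siNAE1 and 205 CPM (n = 2) in siURM1 cells, so the loss followed the siRNA label. URM1 itself averaged 53.6 CPM in control and 48.0 CPM in siUBE2M libraries (log2 fold change -0.16 ± 0.08, adjusted p = 0.0955).

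A processed pseudogene on chromosome 16, UBE2MP1, lost counts together with its parent. It had 26, 26 and 22 counts in the control libraries and 4, 1 and 2 counts after siUBE2M. Over its whole length of 550 bases the pseudogene matched the UBE2M transcript at 534 positions (97.1%), and reads of the parent gene can be assigned to such a copy, so these few counts cannot be told apart from UBE2M reads. The neighbouring genes on chromosome 19 did not share the fall. ZBTB45 and TRIM28 did not pass the test (log2 fold changes 0.20 and 0.10), while CHMP2A rose by 0.23 ± 0.08 and MZF1, a zinc-finger gene, by 0.33 ± 0.10. CHMP2A did not pass without control replicate 1 (0.24, adjusted p = 0.0534), control replicate 3 (0.18, adjusted p = 0.124) or siUBE2M replicate 3 (0.17, adjusted p = 0.137).

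The other genes of the NEDD8 pathway moved by small amounts and in both directions. In what follows, rose and fell mean an adjusted p under 0.05, and a DEG (differentially expressed gene) also changed by 1 log2 unit or more in either direction, the threshold the study used. By adjusted p alone, 22.7% of all genes tested rose and 22.6% fell (45.3% in either direction), so that a passed test is common here. In the 15-gene cascade 6 rose and 7 fell, with a median log2 fold change of 0.09 against 0.01 over all genes tested, and UBE2M was the only DEG. The median of the cascade was 0.05 without control replicate 1 and 0.17 without control replicate 3.

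Of the modifier and its E1, NEDD8 stood at 34.1, 35.2 and 33.7 CPM in control and at 43.4, 42.5 and 48.8 CPM in siUBE2M libraries, a rise of 0.39 ± 0.09 without overlap between the groups (adjusted p = 7.4e-04). Both E1 subunits rose as well, NAE1 by 0.28 ± 0.07 and UBA3, the catalytic subunit, by 0.42 ± 0.07. UBE2F, the second E2 for NEDD8, fell from 12.9, 16.7 and 14.5 CPM to 10.3, 9.51 and 11.0 CPM (log2 fold change -0.52 ± 0.14, adjusted p = 0.00218). Per gene length UBE2F was far lower than its relative, with a mean of 3.44 FPKM against 143 FPKM for UBE2M in control cells, and 2.39 against 9.05 FPKM after siUBE2M. The E2s' ring-finger partners moved apart. RNF7 (RBX2), which works with UBE2F on CUL5, fell by 0.51 ± 0.09, while RBX1 rose by 0.22 ± 0.07. Of the DCN1-like scaffold genes DCUN1D4 fell by 0.37 ± 0.07, DCUN1D2 fell by 0.23 ± 0.08 and DCUN1D5 rose by 0.24 ± 0.08, with 0.16 for DCUN1D1 and 0.09 for DCUN1D3, which did not pass. The smallest of these changes rested on single libraries. RBX1 did not pass without control replicate 1 (0.18, adjusted p = 0.0739) or siUBE2M replicate 3 (0.15, adjusted p = 0.112). DCUN1D5 did not pass without the same libraries (0.17 and 0.18, adjusted p = 0.107 and 0.0817). DCUN1D2 did not pass without control replicate 2 (-0.15, adjusted p = 0.225), siUBE2M replicate 1 (-0.18, adjusted p = 0.138) or siUBE2M replicate 2 (-0.24, adjusted p = 0.0544).

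The largest changes in this pathway after UBE2M were in genes that take NEDD8 off or act on free NEDD8. NUB1, a protein that steers NEDD8 and its conjugates to the proteasome, fell from 183, 191 and 195 CPM to 98.2, 104 and 108 CPM (log2 fold change -0.87 ± 0.06, adjusted p = 1.16e-12). SENP8, the NEDD8-specific protease, fell from 11.0, 12.3 and 13.0 CPM to 8.84, 6.75 and 6.88 CPM, and UCHL3, a hydrolase that can process NEDD8, rose from 6.28, 5.41 and 6.18 CPM to 11.0, 12.5 and 10.8 CPM. For all of these genes the 3 knockdown libraries lay outside the range of the controls.

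**Figure D1:**
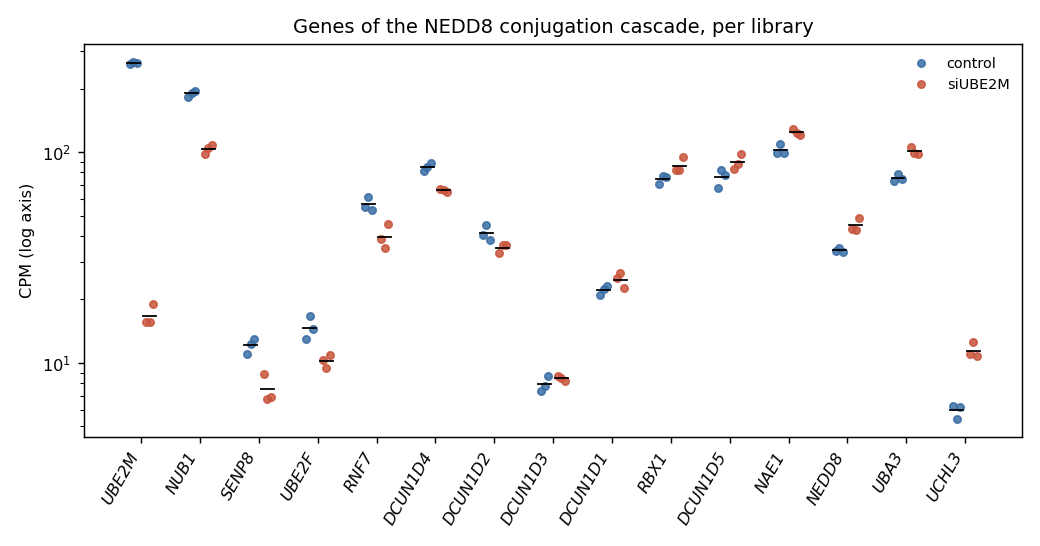
Levels in CPM (log axis) of the 15 genes of the NEDD8 cascade in each of the 3 control (blue) and 3 siUBE2M (red) libraries, with the mean as a black bar, ordered by log2 fold change. UBE2M fell from 263 to 268 CPM to 15.6 to 19.1 CPM, while every other gene stayed within a log2 fold change of 1.

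Transcripts of the ligases that receive NEDD8 changed little. Of the 8 cullin genes 0 rose and 3 fell, with a median of -0.13 that was -0.083 without siUBE2M replicate 3; CUL1, the scaffold of the SCF ligases, was level (0.06, did not pass), and CUL4B fell by 0.25 ± 0.06. Of 12 genes of the COP9 signalosome, which removes NEDD8 from cullins, and of the CAND proteins, which exchange substrate receptors, 2 rose and 4 fell. CAND1 rose by 0.27 ± 0.06, and COPS3 stood at 0.03. Among 25 adaptors and substrate receptors 11 rose and 7 fell, with a median of -0.01; DDB1, the CUL4 adaptor, rose by 0.37 ± 0.06, and VHL, which receives HIF for CUL2, did not pass (-0.12). CCNF, the F-box protein cyclin F, rose the most, from 40.9, 38.004 and 39.5 CPM to 75.6, 78.2 and 84.9 CPM (log2 fold change 1.01 ± 0.07), and without siUBE2M replicate 3 its value was 0.96 and without control replicate 2 it was 0.99, both under the DEG threshold. Without 1 library the median of the adaptors and receptors ran from -0.04 (control replicate 2) to 0.08 (control replicate 3). Of the 31 proteasome subunits 9 rose and 9 fell, around a median of -0.01 that ran from -0.08 (without siUBE2M replicate 3) to 0.05 (without control replicate 2); PSMD4 fell by 0.52 ± 0.06 and PSMB4 by 0.16 ± 0.06, but PSMB4 did not pass without control replicate 1 or 2 or siUBE2M replicate 1 or 2 (-0.18, -0.11, -0.14 and -0.13, adjusted p = 0.0514, 0.24, 0.14 and 0.16).

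Across the transcriptome 1306 genes (7.11% of those tested) were DEGs. Of these, 591 (3.22%) were higher and 715 (3.89%) lower in siUBE2M cells. Most DEGs were scarce, 1019 with a mean under 10 CPM over the 6 libraries and 287 above it, of which 112 were higher and 175 lower. In 1247 of the 1306 DEGs the groups did not overlap. Over all genes tested, the siUBE2M libraries lay wholly above the controls in 26.8% and wholly below in 26.9%. With edgeR's test against a minimum log2 fold change of 1 (glmTreat), 170 genes passed. Among long noncoding RNAs, DEGs were more often lower than higher. Of 2809 tested, 119 were DEGs with higher and 221 with lower levels (4.24 and 7.87%), against 393 and 422 of 14011 protein-coding genes (2.8 and 3.01%). Those of highest CPM were host genes of small nucleolar RNAs or antisense transcripts. SNHG15 fell by 1.09 ± 0.07 and SNHG8 by 1.14 ± 0.09, and SLC16A1-AS1 fell from 87.9, 87.8 and 90.7 CPM to 33.7, 33.9 and 32.9 CPM. As the strand setting of the counting is not given, reads of SLC16A1-AS1 and its partner gene may not be separable.

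Among the 12 genes with the largest rise and a mean of at least 10 CPM, HSPA8, the constitutive cytosolic HSP70 chaperone, led with a change of 4.59-fold. Its libraries read 233, 257 and 261 CPM in control and 1179, 1101 and 1171 CPM after siUBE2M (log2 fold change 2.20 ± 0.06, adjusted p = 1.01e-23). HSPA1B, a stress-inducible HSP70 gene lower in this ranking, rose by 1.64 ± 0.09. It is nearly identical to HSPA1A, so the split of reads between the pair is uncertain. TRPV1, the capsaicin-gated cation channel, stood at 13.9, 12.2 and 12.6 CPM in control and at 50.4, 53.6 and 54.7 CPM in siUBE2M libraries. CDCA2, which targets protein phosphatase 1 to chromatin in mitosis, went from 11.8, 11.7 and 11.5 CPM to 49.9, 48.2 and 45.6 CPM (log2 fold change 2.03 ± 0.11). In none of these genes did the groups overlap.

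A further 7 genes of this group rose by 1.61 to 1.84 on the log2 scale. They were CEP295, needed for centriole maturation (1.84 ± 0.10), TFPI, the inhibitor of the tissue factor pathway of coagulation (1.76 ± 0.12), ZYG11A, a substrate receptor of a CUL2 ligase (1.76 ± 0.09), MAPKBP1 (1.66 ± 0.10), CAVIN1, a coat protein of caveolae (1.64 ± 0.12), SEMA4B, a semaphorin (1.63 ± 0.10), and HERC5, the ligase for the ubiquitin-like protein ISG15 (1.61 ± 0.10). ZYG11A read 21.9, 21.03 and 19.6 CPM in control and 70.1, 69.9 and 72.5 CPM in siUBE2M libraries.

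After UBE2M itself, INHBE, an inhibin subunit, fell the most among genes of at least 10 CPM, from 101, 104 and 96.9 CPM to 10.8, 11.1 and 13.9 CPM (log2 fold change -3.08 ± 0.10, adjusted p = 4.56e-22). AKNA, an AT-hook protein of microtubule organization, fell by 2.98 ± 0.11. TRIB3, a pseudokinase induced in amino acid and ER stress, fell from 275, 281 and 273 CPM to 45.7, 42.6 and 51.6 CPM (-2.57 ± 0.08). NUPR1, a stress-induced chromatin regulator, fell from 41.9, 43.5 and 41.5 CPM to 9.13, 9.77 and 11.2 CPM (-2.08 ± 0.12). The others in this group were G0S2, an inhibitor of adipose triglyceride lipase (-2.53), BEST1, a chloride channel (-2.51), RAPGEF3, a cAMP-activated exchange factor (-2.24), FUT1, a fucosyltransferase (-2.06), SSPO (-2.04), RGS16, a regulator of G protein signalling (-2.02), and ARRDC4, an arrestin-domain protein (-1.99). For each of them all 3 siUBE2M libraries lay below all controls. INHBE, AKNA and TRIB3 were also low with the other siRNAs. They averaged 11.6, 8.12 and 43.4 CPM in siNAE1 and 12.9, 11.7 and 62.9 CPM in siURM1 cells. RGS16 was not, at 57.8 and 35.2 CPM, and is described below with ARRDC4.

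INHBE, TRIB3 and NUPR1 are targets of ATF4, the transcription factor of the integrated stress response, and the ATF4 list had the median furthest from 0 of all lists with at least 15 genes tested. Of its 35 genes 29 fell and 3 rose, and 12 were DEGs, all lower; the median was -0.70, with an SD of 0.065 over the 3 siUBE2M libraries. In 29 of the 35 the siUBE2M libraries lay wholly below the controls. The falls covered transcription factors, secreted factors and enzymes. ATF3, a stress-induced transcription factor chosen after its values were seen, read 435 ± 9.45 CPM (SD, n = 3) in control and 134 ± 2.75 CPM in siUBE2M cells. CTH, the last enzyme of transsulphuration, fell from 193, 188 and 187 CPM to 52.1, 48.1 and 46.5 CPM (-1.95 ± 0.07), and ALDH1L2, a mitochondrial folate enzyme, fell by 1.39 ± 0.08. FGF21, a secreted metabolic hormone, went from 5.07, 5.96 and 4.73 CPM to 0.515, 0.525 and 0.773 CPM (-3.10 ± 0.34), a fold change that rests on few counts. SLC7A11, the cystine transporter, fell from 182, 184 and 221 CPM to 93.7, 92.4 and 66.8 CPM. The 3 that rose, named after their values were seen, were ATF4 itself (0.65 ± 0.06, from 852 to 1339 CPM on average), VLDLR (0.31) and ASNS, asparagine synthetase (0.52 ± 0.11).

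The promoters of these genes are shown because ATF4 acts with C/EBP partners through a composite element, searched here as TGATGNAA on both strands in the 250 bases before each RefSeq gene start (GRCh38.p14). It was in 1104 of 35116 promoters (3.14%) and in 7 of the 43 promoters of list genes, which belong to 7 of the 27 list genes that had an entry. The 7 sequences are given 5′ to 3′ with the match in capitals, with longer flanks where the window touches no annotated exon.
ATF3 (chr1:212565191-212565248, + strand): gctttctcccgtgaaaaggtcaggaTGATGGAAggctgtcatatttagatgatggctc
CEBPG (chr19:33374046-33374103, + strand): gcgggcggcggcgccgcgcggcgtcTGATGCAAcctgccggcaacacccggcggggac
FGF21 (chr19:48755445-48755502, + strand): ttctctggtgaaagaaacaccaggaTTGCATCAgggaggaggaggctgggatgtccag
JDP2 (chr14:75427981-75428021, + strand): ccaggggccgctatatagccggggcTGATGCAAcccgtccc
CHAC1 (chr15:40953254-40953277, + strand): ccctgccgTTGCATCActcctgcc
SLC1A5 (chr19:46784896-46784919, - strand): gaagtggcTGATGCAAgctgtcca
ASNS (chr7:97872461-97872484, - strand): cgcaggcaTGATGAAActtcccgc

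Of the 7 genes with the letters 6 fell and ASNS rose, with a median of -1.17; of the other 20 with a promoter entry 16 fell and 2 rose, with a median of -0.66. Named for the letters in their promoters, beside FGF21 and ATF3, CEBPG, a C/EBP family member, fell by 1.26, CHAC1, a glutathione-degrading enzyme, by 1.17, JDP2 by 0.66 and SLC1A5, the glutamine transporter, by 0.52. A match describes these letters only.

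Lists of amino acid metabolism also fell more often than they rose. Of 20 aminoacyl-tRNA synthetases, which charge tRNAs with amino acids, 12 fell and 4 rose, with a median of -0.39 and no DEG. IARS, the isoleucyl-tRNA synthetase, fell from 913, 896 and 963 CPM to 621, 591 and 567 CPM (-0.64 ± 0.06), and YARS fell by 0.19 ± 0.05. Of 16 genes of serine, one-carbon and transsulphuration metabolism 8 fell and 2 rose, with 8 of the 16 also in the ATF4 list. In the unfolded protein response of the ER, of 26 genes 11 fell and 4 rose, with no member shared with the ATF4 list. XBP1, its transcription factor, fell from 485, 498 and 508 CPM to 203, 201 and 221 CPM (-1.26 ± 0.06, adjusted p = 1.7e-17), while the chaperones CANX and HSP90B1 fell by 0.32 and 0.23.

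Heat shock genes, most of them chaperones and their partners, rose more often than they fell. Of 28 in the list 18 rose and 5 fell, and 5 were DEGs, all higher; the median was 0.40, and the siUBE2M libraries lay wholly above the controls in 18. The summed level of the list went from 5764 to 5956 CPM per control library to 7985 to 8787 CPM per siUBE2M library. Beside HSPA8 and HSPA1B, HSPA2, a testis-enriched HSP70, rose from 1.33, 1.66 and 1.33 CPM to 8.03, 8.59 and 7.58 CPM (2.48 ± 0.25), and DNAJB1, an HSP40 co-chaperone named after its values were seen, rose by 1.08. In the TRiC chaperonin, which folds actin and tubulin, 6 of 8 subunits rose and 0 fell. CCT8 rose from 241, 285 and 259 CPM to 547, 541 and 578 CPM (1.09 ± 0.06) and CCT3 by 0.61 ± 0.06, but CCT7 stood at -0.09 and did not pass, though it did without siUBE2M replicate 3 (-0.15, adjusted p = 0.0427). The subunits of 1 complex thus differed by more than 1 log2 unit.

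Heat shock factors bind repeats of the letters GAA in alternating direction, searched as TTCNNGAANNTTC on both strands. These were in 155 of all 35116 promoters (0.441%) and in 6 of the 41 promoters of heat shock genes, which belong to 6 of the 25 genes with an entry and follow with the match in capitals.
HSPA8 (chr11:123062346-123062374, - strand): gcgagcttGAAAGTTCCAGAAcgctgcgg
HSP90AA1 (chr14:102087095-102087157, - strand): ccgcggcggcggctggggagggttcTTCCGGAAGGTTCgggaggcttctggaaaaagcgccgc
HSP90AB1 (chr6:44247753-44247815, + strand): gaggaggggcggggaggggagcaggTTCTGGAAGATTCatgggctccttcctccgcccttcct
HSPD1 (chr2:197500065-197500090, - strand): gcattTTCTGGAAAGTTCtggaaccg
DNAJB6 (chr7:157336848-157336910, + strand): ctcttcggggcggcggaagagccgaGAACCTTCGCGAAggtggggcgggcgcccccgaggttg
CHORDC1 (chr11:90223089-90223117, - strand): cgcgaccgGAAAATTCGCGAAggttcctg

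Of the 6, 5 rose and CHORDC1, a co-chaperone of HSP90, did not pass (-0.10). HSP90AA1 rose by 0.69, HSP90AB1 by 0.62, the mitochondrial chaperonin HSPD1 by 0.44 and DNAJB6 by 0.30. The median was 0.53 in these 6 and 0.44 in the 19 heat shock genes with an entry and without the letters, of which 13 rose and 4 fell.

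**Figure D2:**
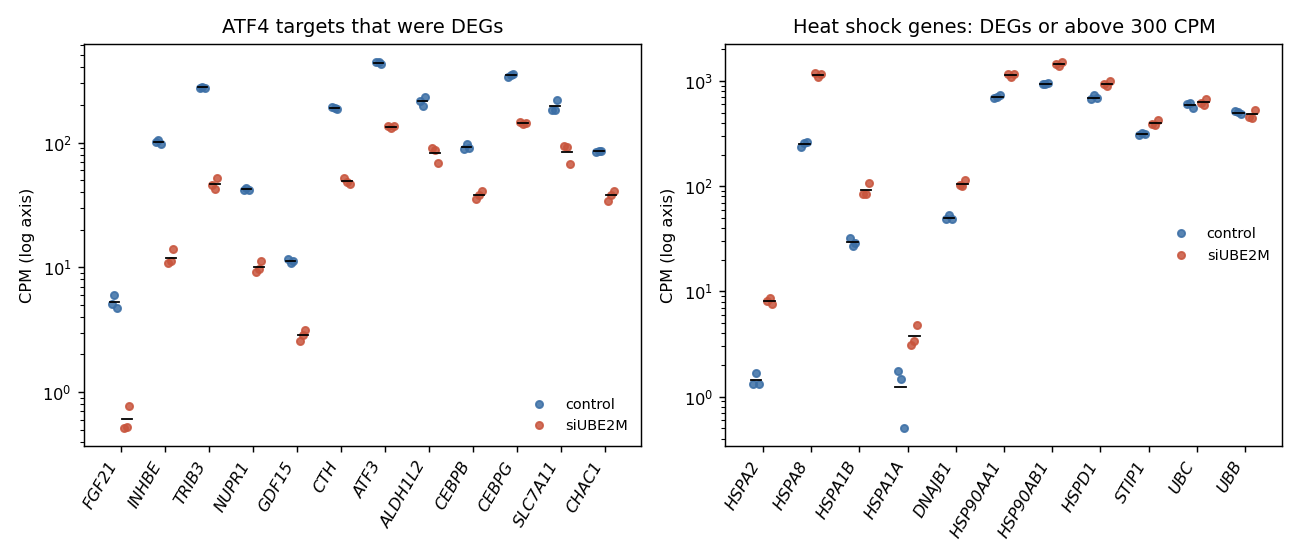
Levels in CPM (log axis) in each control (blue) and siUBE2M (red) library with the mean as a black bar, for the 12 ATF4 targets that were DEGs (left) and for heat shock genes that were DEGs or above 300 CPM on average (right). The 12 ATF4 targets lie lower in all 3 siUBE2M libraries, and HSPA8 moves from 233 to 261 CPM up to 1101 to 1179 CPM.

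Sterol genes rose together. Of 23 genes of cholesterol synthesis and uptake 18 rose and 1 fell, with a median of 0.47 (SD over libraries 0.03), and in 19 the siUBE2M libraries lay wholly above the controls. MSMO1, a sterol methyl oxidase, rose from 21.7, 22.9 and 18.8 CPM to 47.3, 43.7 and 50.1 CPM (1.15 ± 0.09). INSIG1, which holds the sterol sensor SCAP in the ER, rose by 1.04 ± 0.06. Fatty acid synthesis did not share this (5 of 13 rose and 4 fell), although FASN, the fatty acid synthase, rose by 0.60 ± 0.07; SCD, the stearoyl-CoA desaturase, stood at 0.12 and did not pass, though it did without control replicate 3 (0.17, adjusted p = 0.0448).

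HIF and NRF2 are transcription factors whose turnover depends on CUL2 and CUL3 ligases, and p53 is the transcription factor of the DNA damage response. Of 21 HIF targets 14 rose and 2 fell, with a median of 0.37. ADM, a vasodilator peptide, rose from 5.37, 5.66 and 4.61 CPM to 11.6, 10.7 and 13.1 CPM and SLC2A3, a glucose transporter, rose by 1.13 ± 0.11, but VEGFA, the vascular growth factor, fell from 214, 201 and 197 CPM to 92.6, 101 and 83.4 CPM (-1.15 ± 0.07). Of 20 NRF2 targets 12 rose and 2 fell, with a median of 0.39. PRDX1, a peroxiredoxin, rose from 92.1, 99.7 and 91.9 CPM to 270, 260 and 274 CPM (1.502 ± 0.06), whereas SLC7A11, counted here also, fell. PRDX1 averaged 304 CPM in siURM1 cells. The median difference of siUBE2M from siURM1 was 0.03 for HIF targets and -0.17 for NRF2 targets. Of 18 p53 targets 4 rose and 4 fell, with a median of -0.10; GDF15, a stress cytokine that is also in the ATF4 list, fell by 1.96 ± 0.18, and SESN2 fell by 0.69 ± 0.06. CDKN1A, the CDK inhibitor p21, named after its values were seen, read 87.2 CPM on average in control and 78.1 CPM in siUBE2M cells (-0.16, adjusted p = 0.0567).

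Of 17 glycolytic genes 12 rose and 2 fell, with a median of 0.39; GAPDH rose by 0.39 ± 0.06 and ALDOC by 1.04 ± 0.18, while ENO1, of highest CPM, fell by 0.23 ± 0.06. ALDOC was under the DEG threshold without control replicate 1 (0.96), control replicate 3 (0.94) or siUBE2M replicate 3 (0.77). Of 14 NF-kB targets 2 rose and 3 fell (14.3 and 21.4%), and of 12 targets of WNT signalling 4 rose and 3 fell (33.3 and 25%), against 22.7 and 22.6% over all genes tested.

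Genes of mitosis rose more often than they fell, 21 against 4 of 30, with a median of 0.32 (SD over libraries 0.02). MKI67, the proliferation marker Ki-67, rose from 236, 216 and 245 CPM to 655, 671 and 562 CPM (1.44 ± 0.07, adjusted p = 3.19e-17), and CDCA2, described above, led the list. The regulators CDK1 (-0.07), CDC20 (-0.10) and CCNB2 (-0.11), named after their values were seen, did not pass. Replication licensing, whose factor CDT1 is a substrate of CUL4 and SCF ligases, was mixed. Of 24 genes 11 rose and 8 fell; CDT1 and ORC1, named after their values were seen, rose by 0.93 ± 0.06 and 0.98 ± 0.08, MCM7 by 0.39 ± 0.06, and MCM3 stood at -0.12 and did not pass, though it did without siUBE2M replicate 3 (-0.15, adjusted p = 0.0471). Of 26 E2F targets 11 rose and 7 fell; POLE, the catalytic subunit of a replicative polymerase, rose by 0.72 ± 0.06 and PCNA did not pass (adjusted p = 0.958).

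The list of CDK inhibitors and D cyclins also holds the kinase CDK4. Of its 14 genes 6 rose and 5 fell, with a median of -0.05. CDKN2C, an inhibitor of CDK4 and CDK6, rose from 31.1, 34.1 and 32.8 CPM to 80.7, 79.1 and 88.5 CPM (1.34 ± 0.08). CDKN2A, of highest CPM, rose by 0.35 ± 0.06, and CDK4 fell by 0.38 ± 0.06. Of 13 histone genes 6 fell and 1 rose, with a median of -0.54 (SD over libraries 0.25). The median was -0.81 without control replicate 2 and -0.49 without siUBE2M replicate 1. H1F0, a linker histone that is made outside S phase and has polyadenylated transcripts, fell from 695, 714 and 674 CPM to 254, 251 and 272 CPM (-1.42 ± 0.06), and HIST1H2AC fell by 1.58 ± 0.18. Most replication-dependent histone transcripts lack a poly(A) tail, so such members of the list can be seen only in part in these libraries. In the BCL2 family 2 of 15 rose and 3 fell. BCL2L1, which encodes the survival protein BCL-xL, fell from 24.3, 24.7 and 24.5 CPM to 10.2, 10.4 and 11.6 CPM (-1.19 ± 0.11), PMAIP1 (NOXA) fell by 0.97 ± 0.06, and MCL1 did not pass (-0.06).

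The translation apparatus split by compartment. Of 52 cytosolic ribosomal protein genes 33 rose and 0 fell. Their median was 0.22 (SD over libraries 0.11), and it was 0.15 without siUBE2M replicate 3. Of 39 mitochondrial ribosomal protein genes 8 rose and 20 fell, with a median of -0.20. MRPL1 fell from 43.1, 54.0 and 43.4 CPM to 16.8, 20.2 and 22.4 CPM (-1.24 ± 0.11) and MRPS10 by 1.07 ± 0.08. Of 39 nuclear genes of the respiratory chain 20 rose and 5 fell, with a median of 0.18 that was 0.10 without siUBE2M replicate 3, and of the 13 encoded in mitochondria 2 rose and 2 fell. Among 26 translation initiation factors and regulators 13 rose and 7 fell. EIF4B rose from 312, 324 and 343 CPM to 972, 957 and 940 CPM (1.55 ± 0.06, adjusted p = 8.56e-20), and EIF4EBP1, the repressor of cap-dependent translation, fell by 1.04 ± 0.07, with -0.998 without siUBE2M replicate 1 or 2. Of 20 MYC targets 14 fell and 3 rose, with a median of -0.26; NPM1, of highest CPM, rose by 0.34 ± 0.06 and RRP9, a nucleolar RNA-processing factor, fell by 1.07 ± 0.09, with -0.99 without control replicate 1.

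Of 32 lysosome and autophagy genes 19 rose and 4 fell. CTSA, a lysosomal carboxypeptidase, rose from 29.8, 30.9 and 26.5 CPM to 79.9, 79.6 and 85.5 CPM (1.49 ± 0.08) and ATG14 by 1.01 ± 0.10, with 0.97 without control replicate 1 or siUBE2M replicate 1. Of 20 interferon-induced genes 7 rose and 2 fell, all 4 DEGs being higher; IFI44L (1.89 ± 0.51) and IFIT1 (1.30 ± 0.27) stayed below 4 CPM in each of the 6 control and siUBE2M libraries. Of 24 immediate early genes 7 rose and 8 fell. Their summed level fell from 1294 to 1333 CPM to 835 to 875 CPM per library, JUN having the highest CPM at 671, 643 and 637 CPM in control and 302, 312 and 332 CPM in siUBE2M cells. In the URM1 pathway, which thiolates tRNA, 1 of 11 genes rose and 3 fell; ELP2, of the Elongator complex, stood at 0.01 and did not pass.

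**Figure D3:**
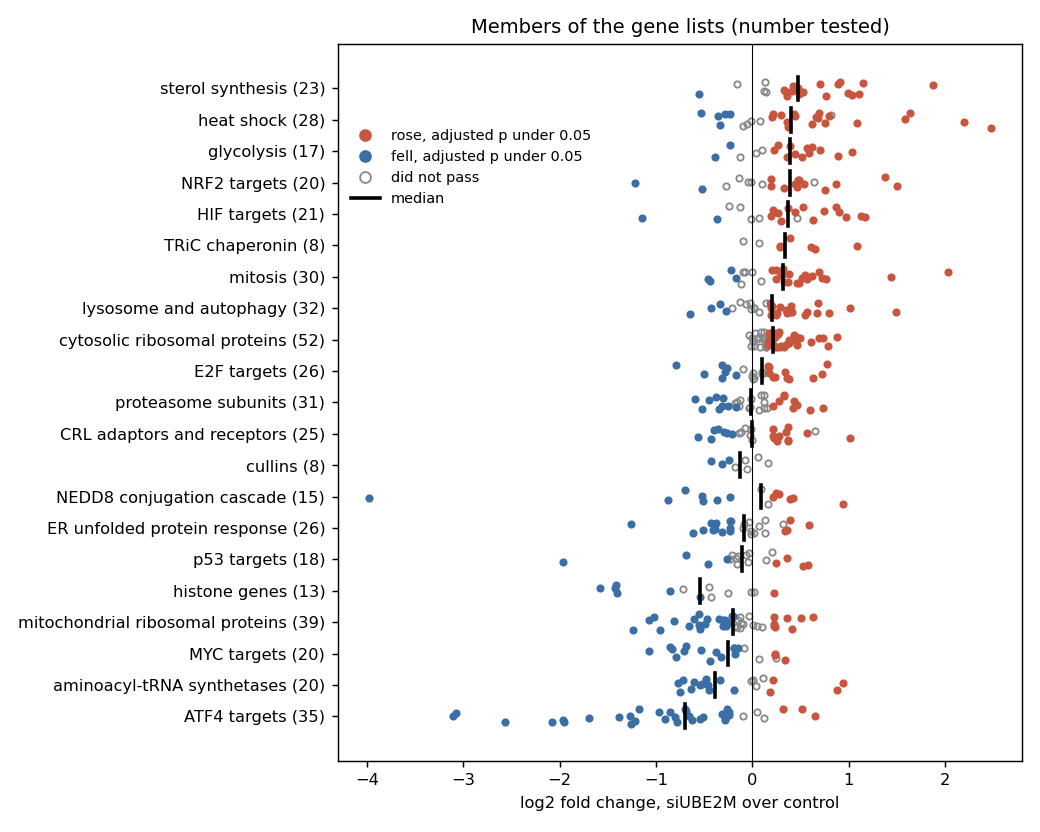
Log2 fold change of siUBE2M over control for each tested member of 21 gene lists (number tested in brackets), in red where it rose, blue where it fell and open where it did not pass, with the median of the list as a black bar. Among the lists plotted, which do not include the interferon-induced genes, the medians run from -0.70 for ATF4 targets to 0.47 for sterol synthesis.

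siUBE2M was also contrasted directly with the other knockdowns. The control libraries enter these contrasts through the shared estimate of spread, though not through the fold change. Changes from control given above are not taken as particular to siUBE2M unless such a contrast shows a difference. Against siNAE1, 916 genes (4.99% of those tested) were DEGs with higher and 524 (2.85%) with lower levels in siUBE2M cells; by adjusted p alone 21.6% were higher and 22.7% lower. Against siURM1 there were 634 higher (3.45%) and 359 lower (1.95%), with 16.7% higher and 18.3% lower by adjusted p alone. The targets of the other siRNAs are among them: NAE1 was 1.63 ± 0.08 higher than in siNAE1 cells. Because siURM1 had 2 libraries, its spread rests largely on the estimate shared by all groups.

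Between the E2 and the E1 knockdown several stress lists differed. The depth of knockdown differed too. UBE2M was left at 6.34% of its control mean, while NAE1 averaged 39.8 CPM in siNAE1 and 102 CPM in control cells. Each siRNA also had its own dose, so target, depth and dose cannot be told apart in contrasts between knockdowns. ATF4 targets were higher in siUBE2M than in siNAE1 cells in 24 of 35 genes and lower in 2, with a median difference of 0.35, and aminoacyl-tRNA synthetases were higher in 15 of 20 and lower in 3 (median 0.40). NUPR1, for example, stood at 10.0 ± 1.04 CPM in siUBE2M and 3.20 CPM in siNAE1 cells, against 42.3 CPM in control, but INHBE was close in both, at 11.9 and 11.6 CPM. Heat shock genes were lower in siUBE2M than in siNAE1 cells in 23 of 28, with a median of -0.38, mitochondrial ribosomal protein genes in 33 of 39 (-0.36), proteasome subunits in 23 of 31 (-0.32) and glycolytic genes in 15 of 17 (-0.47). HSPA1B averaged 91.9 CPM in siUBE2M and 231 CPM in siNAE1 cells.

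Genes of DNA replication and mitosis were more often higher than lower in siUBE2M cells against each of the other knockdowns. For mitosis higher levels held for 15 of 30 genes against siNAE1 and 18 of 30 against siURM1 (5 and 2 lower), and for E2F targets for 13 and 17 of 26 (2 and 2 lower). MKI67 read 629 ± 58.8 CPM in siUBE2M cells (SD, n = 3), against 379 CPM with siNAE1 and 296 CPM with siURM1. Against siURM1, genes of the respiratory chain encoded in the nucleus were lower in 27 of 39 and mitochondrial ribosomal protein genes in 26 of 39. Of 35 ATF4 targets 10 were higher and 8 lower (median 0.07). The median difference from siURM1 was -0.05 for heat shock genes and -0.12 for sterol genes. XBP1 averaged 208 CPM in siUBE2M, 186 CPM in siNAE1 and 175 CPM in siURM1 cells.

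A small set stood apart, as DEGs in the same direction against control, siNAE1 and siURM1 at once. It held 77 genes that were higher (0.419% of those tested) and 29 that were lower (0.158%), of which 9 and 8 had a mean of at least 10 CPM. Since membership uses these contrasts, their sizes are given as a description. CEP295 read 35.6, 26.6 and 34.3 CPM in control and 119, 128 and 98.6 CPM in siUBE2M libraries, with means of 33.2 CPM in siNAE1 and 27.3 CPM in siURM1 cells. KDM6A, an X-linked histone H3 demethylase, averaged 71.8 CPM in control, 198 CPM in siUBE2M, 92.4 CPM in siNAE1 and 48.1 CPM in siURM1 cells. TRPV1, TFPI and QRICH2 completed the 5 with the widest separation; QRICH2 averaged 30.2 CPM in siUBE2M cells and 10.1 to 13.85 CPM in the other groups.

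On the lower side UBE2M itself came first, then RGS16, which averaged 10.1 CPM in siUBE2M and 41.1 CPM in control, 57.8 CPM in siNAE1 and 35.2 CPM in siURM1 cells. SAT1, which acetylates polyamines for export or breakdown, read 95.3, 99.6 and 91.5 CPM in control and 33.3, 33.9 and 39.0 CPM in siUBE2M libraries, with 106 CPM in siNAE1 and 138 CPM in siURM1 cells. ARRDC4 averaged 35.0 CPM, against 138.8 CPM in control and 88.4 and 83.5 CPM in the other knockdowns, and TSC22D3 (GILZ), a glucocorticoid-induced leucine zipper protein, fell from 888, 909 and 886 CPM to 428, 402 and 436 CPM, with 897 CPM in siNAE1 and 1036 CPM in siURM1 cells.

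**Figure D4:**
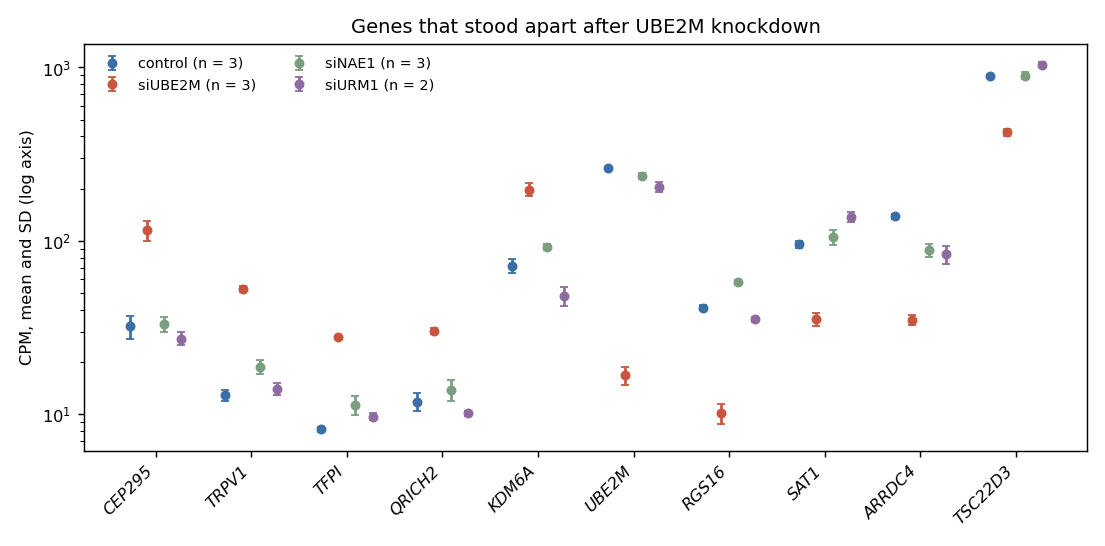
Mean level in CPM (log axis) with SD in control (blue), siUBE2M (red), siNAE1 (green) and siURM1 (purple) cells of the 5 higher and 5 lower genes that stood furthest apart after UBE2M knockdown. UBE2M is at 16.8 CPM in siUBE2M cells and between 205 and 265 CPM elsewhere, and CEP295 is at 115 CPM against 27.3 to 33.2 CPM.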

How the data were processed

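Poly(A) RNA-seq of HEK293T cells was deposited as tables of counts per gene and of FPKM for 11 libraries. Per the labels and the study's methods, the authors used fastp for trimming, HISAT2 2.0.5 for alignment (GRCh38) and obtained raw counts per gene with featureCounts 1.5.0-p3; they also deposited FPKM, which scales counts by gene length and library total. Whether counting used the strand of the dUTP libraries, and how reads shared by overlapping genes were treated, is not given in the sources used here, so genes with overlapping or near-identical partners are uncertain.

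Counts were filtered with filterByExpr, scaled by TMM and fitted in edgeR 4.0.16 (R 4.3.3) by quasi-likelihood over 4 groups, which share one estimate of spread (18368 genes, biological coefficient of variation 7.06%). P-values were adjusted by Benjamini-Hochberg over all genes tested, with a threshold of 0.05, and DEGs had to change by 1 log2 unit or more as well, after the study's methods. SE is the log2 fold change divided by the square root of its F. CPM use TMM-scaled library sizes; FPKM served only to compare genes per length. The 43 gene lists (856 genes, 792 tested) and the comparison were chosen with earlier results of these data known. Named genes are the NEDD8 cascade, the 12 highest and 12 lowest DEGs of at least 10 CPM, up to 4 DEGs of each list by size of change (where a list had fewer than 2, the 2 of highest level), the 5 widest apart in each direction, the 3 long noncoding DEGs of highest CPM, and up to 3 neighbours of UBE2M on each side. Apart from COL1A1, URM1 and the pseudogene UBE2MP1, genes outside this rule are said to be so, or are all the members that hold a motif. A few genes that the rule would name are not reported here. Fits were tested on simulated data.

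Alternatives were DESeq2 1.42.0 on 4 or 2 groups, other scalings (RLE, upper quartile), other filters, a 2-group fit, a block for replicate number, glmTreat, no fold threshold, removal of a gene-length trend, and leaving out each of the 6 libraries. Same-numbered control and siUBE2M libraries did not deviate together (correlations -0.0215, -0.0451 and -0.0477), so their numbers were not taken as pairs. Between any 2 of the 6 libraries the counts differed in at least 27332 genes, and each was counted as a sample of its own. Promoter sequences are those of RefSeq. P-values measure the spread between these samples only, since nothing beyond the word biological says that they came from separate cultures.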

Additional observations from a re-analysis of the deposited data

How the results depend on the processing

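DESeq2, RLE and upper quartile scaling, no filter, the 2-group fit and removal of the gene-length trend kept the number of DEGs against control between 1139 and 1312 (main 1306), and the median of all genes within 0.03 of 0 on the log2 scale. With at least 10 counts required in every library, 14479 genes were tested and 686 were DEGs (294 higher, 392 lower), with 780 against siNAE1, 603 against siURM1 and 52 apart from all groups; fewer genes entered this test. Under glmTreat these numbers were 170 (63 higher, 107 lower), 179, 136 and 8, and with no fold threshold 8317 (4170 higher, 4147 lower), 8134, 6427 and 1697, against 1306, 1440, 993 and 106 as reported. Leaving out 1 of the 6 libraries gave 1171 to 1219 DEGs and a log2 fold change of UBE2M between -4.08 and -3.92, with 1302 to 1431 DEGs against siNAE1, 894 to 985 against siURM1 and 85 to 107 genes apart.

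A block for replicate number gave 1285 DEGs and, for UBE2M, -3.98. It moved no count of DEGs by over 1.5 times, and since the labels do not say that a number marks a shared batch it is given as a hint only: none of the 3 same-numbered pairs of control and siUBE2M libraries correlated above 0, and pairs with siNAE1 or siURM1 libraries were not computed.

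Of 40 list medians 33 kept their sign in every alternative; the 7 that did not lay near 0 (COP9 signalosome, adaptors and receptors, URM1 pathway, proteasome, CDK inhibitors, mitochondrial genes of the respiratory chain, keratins). The ATF4 median ran from -0.79 to -0.68, the heat shock median from 0.32 to 0.45 and the sterol median from 0.45 to 0.51. Of 2452 values of named genes under the alternatives, 2287 kept their direction and their side of the threshold and none reversed; glmTreat accounted for 79 of those that no longer passed. With 1 library left out, some genes of low level lost significance: IRF9 without siUBE2M replicate 2 (0.79, adjusted p = 0.0868), EGR3 without siUBE2M replicate 3 (1.15, adjusted p = 0.0798), ICAM1 without control replicate 1 or 2 or siUBE2M replicate 1 or 3 (-1.46, -1.65, -1.77 and -1.53, adjusted p = 0.118, 0.0721, 0.0633 and 0.0924), and HIST2H2AC without control replicate 1 or siUBE2M replicate 3 (-1.14 and -1.10, adjusted p = 0.0907 and 0.0822). DCUN1D2, DCUN1D5, RBX1, PSMB4 and CHMP2A, with log2 fold changes under 0.25, did so for at least 2 of the 6 libraries, and the DEG calls of CCNF, ATG14, ALDOC, EIF4EBP1 and RRP9 sat at the threshold.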

Other observations

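EEF2 and ACTG1, the DEGs of highest CPM, were members of no list; the genes in this section were chosen after their values were seen. EEF2, the elongation factor that moves the ribosome along the message, stood at 3846, 3839 and 3778 CPM in control and 7648, 7613 and 8103 CPM in siUBE2M libraries (log2 fold change 1.03 ± 0.06, adjusted p = 1.85e-15, edgeR). ACTG1, cytoplasmic gamma actin, followed, from 1065, 1090 and 1039 CPM to 2882, 2756 and 3171 CPM (1.46 ± 0.06). Both were also above control with the other siRNAs, at 5906 and 7042 CPM for EEF2 and 2811 and 2855 CPM for ACTG1 in siNAE1 and siURM1 cells. Of other genes outside the lists, with lower CPM, TRIP12, a HECT-type ubiquitin ligase, rose from 163, 164 and 181 CPM to 455, 470 and 405 CPM, and HCFC1, a transcriptional cofactor, by 1.47 ± 0.08.

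Genes of polyamine metabolism beside SAT1, picked after their values were seen and not from a list, moved in both directions. SMOX, spermine oxidase, fell by 1.34 ± 0.13 and SRM, spermidine synthase, by 0.85 ± 0.07, while SMS, spermine synthase, did not pass (0.12) and OAZ1, the antizyme that inhibits ornithine decarboxylase, rose by 0.53 ± 0.07. TXNIP, an arrestin-domain relative of ARRDC4, fell by 0.86 ± 0.07 from a mean of 136 CPM, whereas ARRDC1, ARRDC2 and ARRDC3 did not pass.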
